A study of Mus musculus with 6 samples.

Results

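The 40 members described here are mouse genes of the lysosome or linked to it. They comprise 11 cathepsins, other acid hydrolases, lysosomal membrane proteins, subunits of the proton pump, the regulator Tfeb and Mrc2, a receptor that carries collagen into the cell for breakdown. Members were found as deposited annotations equal to the gene symbol, and 39 of 40 were present among 14769 gene annotations. Tfeb was present under its older symbol Tcfeb and is given apart from the counts of members. Of the 39 members, 37 had enough reads to be tested among 11125 tested genes. The reads of cathepsins F and K were too few.

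The libraries were made from Mvt1, a single mouse mammary carcinoma line of the FVB/N strain that was derived as an explant from tumours with Myc and Vegf transgenes. Cells stained for surface CD24, a glycosylated membrane protein, were sorted into a CD24- and a CD24+ group, and RNA was taken from 3 plates of each group grown in DMEM with serum, with no other treatment. The comparison asks which transcripts differ between the 2 sorted groups, and independent sorts are not described, so p-values measure the spread between plates. Cd24a was at 12.1, 11.5 and 6.99 counts per 1000000 gene reads (CPM) in CD24- replicates 1, 2 and 3, and at 73.3, 85.5 and 72.5 in CD24+ replicates 1, 2 and 3. The groups did not overlap, which follows the sort.

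Lysosomes are acidic compartments in which hydrolases break down proteins, glycans and lipids that arrive from the cell surface, from autophagy and from the secretory route. Most hydrolases are tagged with mannose 6-phosphate in the Golgi and are carried to the lysosome by receptors. A proton pump, the V-ATPase, keeps the lumen acidic. Tumour cells can also secrete cathepsins, which then cleave matrix proteins outside the cell.

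Mapped reads per library ranged from 9046025 to 25692147, of which 71.76% to 74.35% were annotated to genes. The epithelial keratins Krt8 and Krt18 were abundant, at 555 to 1284 and 200 to 761 CPM, both lower in CD24+ cells, as was Krt19 (-1.96 ± 0.17), the largest drop among the 3 epithelial markers with enough reads to be tested. Cdh1, Epcam, Krt5 and Krt14, other markers of mammary epithelium, had at most 3 reads in any library. Krt7 and Cldn4 had at most 7 and 8 reads. Replicates 1 and 2 of CD24- differed little from each other (chi-square per degree of freedom 1.75), and CD24- replicate 3 stood apart from both (10.2 and 11.9). The CD24+ libraries differed from each other about as much (9.69 to 15.9). Values are given throughout in the order 1, 2 and 3.

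Lysosomal genes did not move as a block. The hydrolases and proton pump subunits that changed were mostly lower in CD24+ cells. The membrane proteins Lamp1 and Lamp2 and the regulator Tfeb were higher. The collagen receptor Mrc2 was higher as well, but it was chosen with its direction in these libraries known. It is included in the counts of members below. Of 37 tested members, 23 passed an adjusted p of 0.05 in edgeR's quasi-likelihood test with Benjamini-Hochberg adjustment (62.2%), beside 46.1% of all tested genes. Lower values in CD24+ cells were called for 15 members (40.5%, beside 22.3% of all genes) and higher values for 8 (21.6%, beside 23.8%). The members had more reads than most genes, with a median of 96.35 CPM against 41.3 CPM over all tested genes, and the part of depth in the share called was not tested. Of the 23 calls, 16 held with each library left out in turn, and 22 held without CD24- replicate 3. The fit without CD24- replicate 3 kept CD24- replicates 1 and 2, which differed little from each other. It called 5358 of all genes, against 5130 with all libraries. Among the fits with a library left out, the fewest calls, 17, held without CD24- replicate 2. With each distinct sequence counted once per library, 15 of 36 tested members and 3697 of 11078 tested genes were called. The median log2 fold change of the members was -0.09, and that of all tested genes was 0.02.

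Of the 37 tested members, 5 were called with a difference of at least 2-fold (13.5%, beside 14.4% of all tested genes), namely Ctsc and Mrc2 upward and Cd68, Ctsl and Ctsh downward. For 27 members (73.0%) the groups did not overlap, beside 57.3% of all tested genes. In 11 of them all CD24+ libraries were higher and in 16 lower, beside 29.7% and 27.6% of all tested genes. All members together took 0.802%, 0.808% and 0.696% of gene reads in CD24- libraries and 0.708%, 0.593% and 0.671% in CD24+ libraries. These shares overlapped between groups. In bulk RNA, fewer cells that express a gene and less RNA per cell cannot be told apart.

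**Figure D1:**
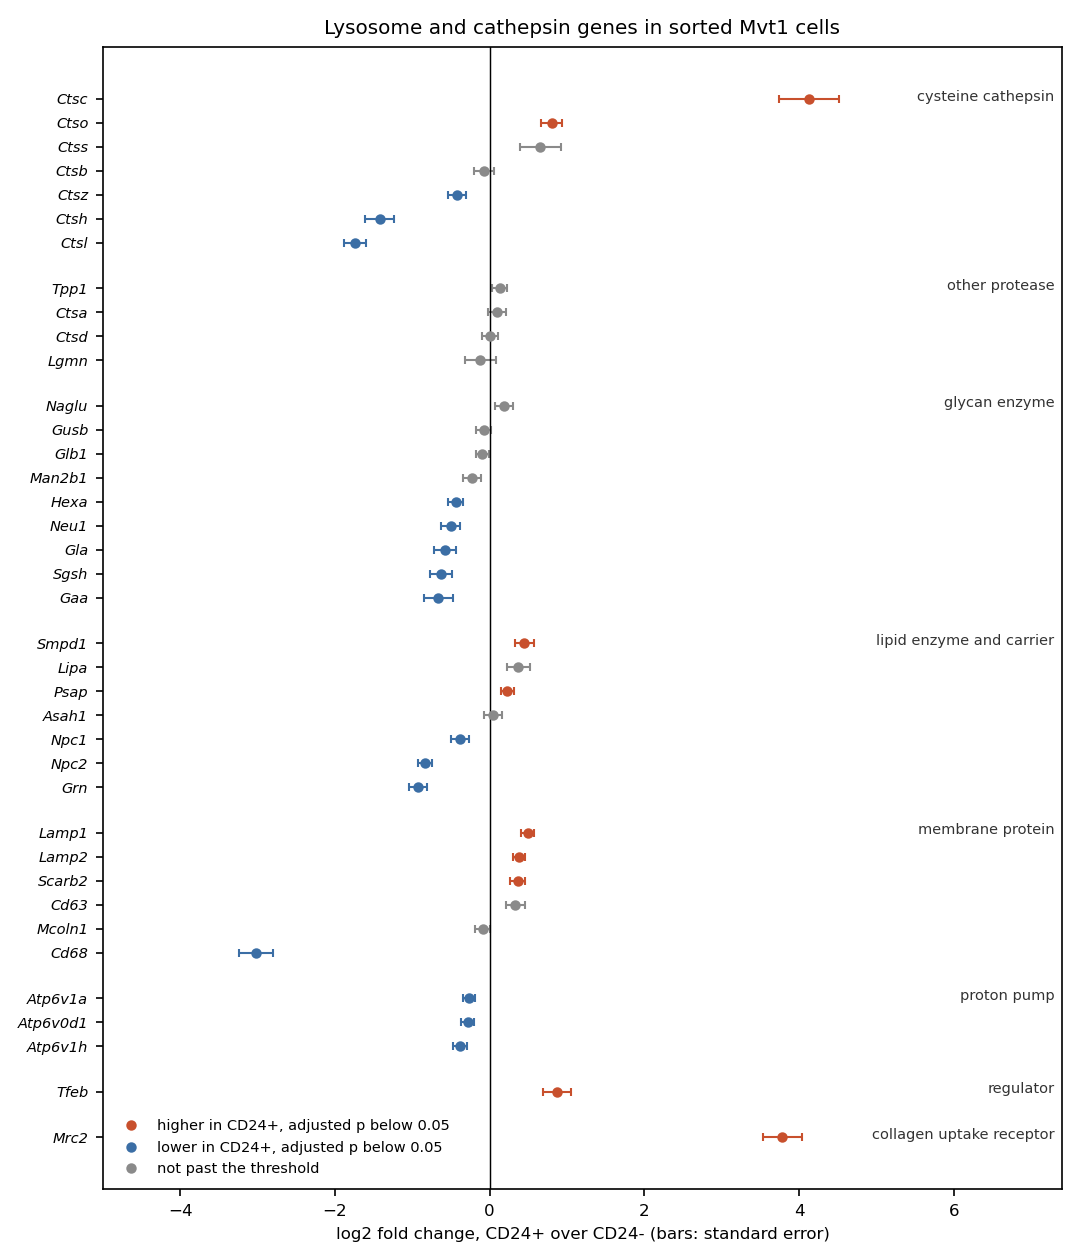
Log2 fold change of CD24+ over CD24- cells (horizontal axis) for each tested member and Tfeb, grouped by role, with the standard error as a bar. Red points were higher and blue points lower in CD24+ cells at an adjusted p below 0.05, and grey points did not pass. Mrc2 and Ctsc stand far to the right and Cd68 far to the left, while most other members lie within 1 log2 unit of 0.

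Adding 10 to quantile-normalized CPM pulled genes with few reads toward 0. Under that setting the log2 fold changes were -2.07 for Cd68, -0.75 for Ctsh, 0.43 for Ctsc, 0.39 for Tfeb and 3.19 for Mrc2, and all 5 remained called in limma.

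The cysteine cathepsins are papain-like proteases that attack the peptide bond with a cysteine. The 27 coding bases around that cysteine are shown for 8 members because they are the part of the coding sequence that these enzymes have in common by function. They were read from GENCODE M21 transcripts (GRCm38), with the codon of the catalytic cysteine in capitals.
Ctsb: tcctgcggctctTGTtgggcatttggg
Ctsc: tcttgtggaagcTGCtactcatttgcc
Ctsh: gcctgtggcagcTGCtggactttctct
Ctsk: cagtgtggttccTGTtgggctttcagc
Ctsl: cagtgcgggtctTGTtgggcgtttagc
Ctso: atgtgtggaggaTGCtgggccttcagc
Ctss: tcttgtggtgccTGCtgggctttcagt
Ctsz: tactgtggttccTGCtgggcccacggc

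Cysteine cathepsins moved in both directions. Of 7 tested, Ctsl, Ctsh and Ctsz were lower in CD24+ cells (42.9%, beside 22.3% of all genes) and Ctsc and Ctso were higher (28.6%, beside 23.8%). Their summed counts were 2597, 2722 and 2143 CPM in CD24- libraries and 1731, 1281 and 1512 CPM in CD24+ libraries, and every CD24+ sum was below every CD24- sum. Ctsl accounted for most of that gap, since without it the sums were 1305, 1373 and 1037 CPM against 1274, 975 and 1148 CPM and overlapped.

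Cathepsin L is an endopeptidase of lysosomal protein turnover that is also secreted as a proenzyme. Ctsl was at 1292, 1349 and 1106 CPM in CD24- libraries and at 457, 306 and 364 CPM in CD24+ libraries. Every CD24+ library was far below every CD24- library. The log2 fold change was -1.74 ± 0.14 (SE, n = 3 per group), a level 3.33-fold higher in CD24- cells, with an edgeR adjusted p of 5.29e-06. Counting each distinct sequence once per library gave -0.71 and kept the call. Reads that covered the catalytic codon of Ctsl printed above numbered 234, 288 and 185 in CD24- libraries and 59, 135 and 144 in CD24+ libraries, although CD24+ replicates 2 and 3 were the deepest libraries. Ctsl lies on the minus strand at chr13:64359337-64370890 (GRCm38), and 98.7% of its reads matched a GENCODE transcript of the gene.

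Cathepsin H is an aminopeptidase. Ctsh was at 14.6, 15.35 and 10.6 CPM in CD24- libraries and at 4.25, 5.53 and 5.08 CPM in CD24+ libraries. The groups did not overlap, and the log2 fold change was -1.42 ± 0.19 with an edgeR adjusted p of 1.54e-04. Cathepsin Z removes single residues from the carboxyl end of proteins. Ctsz was at 329, 349 and 273 CPM against 266, 211 and 236 CPM, a smaller difference in which the lowest CD24- library was close to the highest CD24+ library. Its log2 fold change was -0.42 ± 0.11 with an edgeR adjusted p of 0.0124, a call that was lost without CD24- replicate 2 and with each distinct sequence counted once (at -0.29, p adjusted over all genes 0.173).

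Cathepsin C is a dipeptidyl peptidase known for activating the serine proteases of immune cell granules. Ctsc had 4, 2 and 1 reads in CD24- libraries and 27, 68 and 97 reads in CD24+ libraries, which is 0.421, 0.190 and 0.113 CPM against 4.25, 3.84 and 5.08 CPM. The gene was thus near the limit of detection in CD24- cells and low in CD24+ cells. Pooled over libraries the ratio was 18.4, with an exact 95% interval of 8.76 to 46.4 that covers counting error only. The edgeR log2 fold change was 4.13 ± 0.39 with an adjusted p of 1.34e-05. When reads matching a Ctsc transcript were counted whatever their annotation, repeats included, it was 1.43 with an adjusted p of 3.28e-04, and with reads unique to the gene it was 3.997. Ctsc lies at chr7:88278085-88310888 (GRCm38), and 43.4% of the reads that matched its transcripts also matched a transcript of another gene.

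Cathepsin O is a widely expressed member of the family. Ctso was at 25.9, 27.01 and 22.4 CPM in CD24- libraries and at 48.8, 36.0 and 47.6 CPM in CD24+ libraries. All CD24+ libraries were higher, with a log2 fold change of 0.80 ± 0.14 and an edgeR adjusted p of 7.99e-04.

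Cathepsin B, an endopeptidase that also removes dipeptides from the carboxyl end, did not separate the groups. Ctsb was at 932, 978 and 729 CPM against 948, 715 and 851 CPM. These ranges overlapped, and the log2 fold change was -0.07 ± 0.13 with an edgeR adjusted p of 0.683.

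Cathepsin S, known from antigen presenting cells, cathepsin K, known from osteoclasts, and cathepsin F had few reads. Ctss was at 1.68, 2.27 and 1.58 CPM against 2.52, 3.56 and 2.57 CPM, with a log2 fold change of 0.66 ± 0.27 and an edgeR adjusted p of 0.07004. Only 3.85% of its 182 reads matched a Ctss transcript, so these values are not a measure of the mature mRNA. Ctsk had 7, 10 and 7 reads in CD24- libraries and 2, 13 and 9 reads in CD24+ libraries, and 20.8% of them matched a transcript. Ctsf had 1 read in all, in CD24- replicate 3.

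The remaining cathepsins use other chemistry and did not differ detectably. Cathepsin D is an aspartic endopeptidase, and Ctsd was at 592, 586 and 558 CPM against 646, 495 and 602 CPM. The groups overlapped, with a log2 fold change of 0.00 ± 0.10 and an edgeR adjusted p of 0.973. Of the reads that matched Ctsd transcripts, 40.8% also matched Gm49369, an annotated gene that overlaps it. Cathepsin A is a serine carboxypeptidase that also shields the lysosomal sialidase and beta-galactosidase, and Ctsa was at 130, 125 and 100 CPM against 138, 109 and 133 CPM. It overlapped as well, with a log2 fold change of 0.09 ± 0.12 and an edgeR adjusted p of 0.550. The other 2 soluble proteases, the asparaginyl endopeptidase Lgmn and the tripeptidyl peptidase Tpp1, were not called, with log2 fold changes of -0.12 ± 0.20 and 0.13 ± 0.09.

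**Figure D2:**
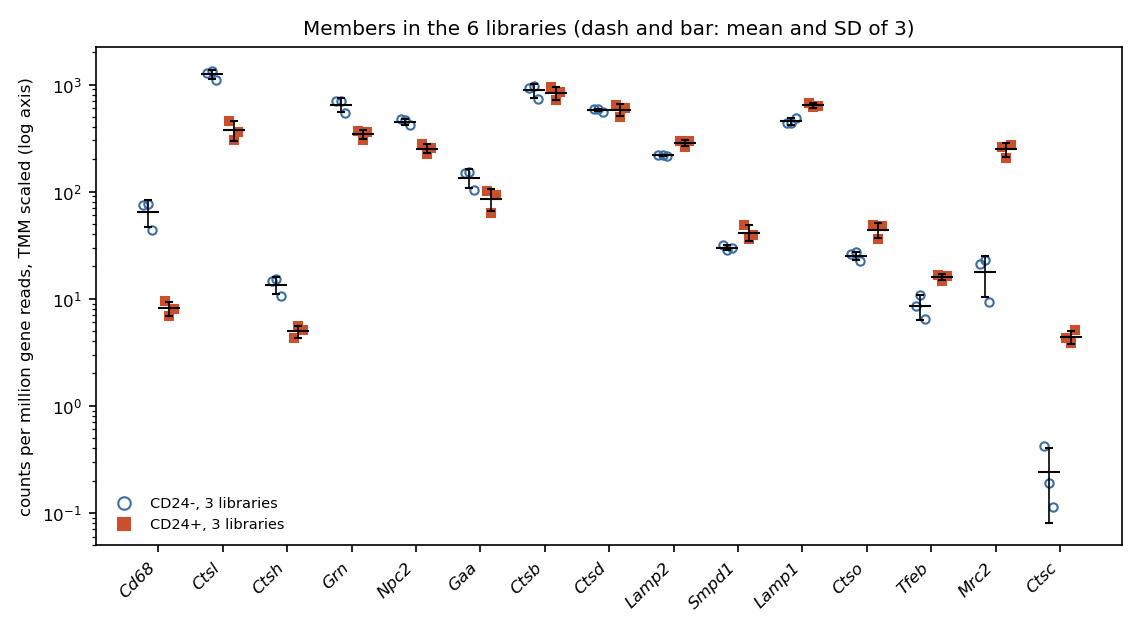
Counts per 1000000 gene reads (log axis) of 15 members in each library, with open circles for the 3 CD24- and filled squares for the 3 CD24+ libraries, and a dash and bar for mean and SD. Cd68, Ctsl and Ctsh are lower and Mrc2 and Ctsc higher in every CD24+ library, while Ctsb and Ctsd overlap. CD24- replicate 3 is the lowest CD24- library for every gene drawn except Lamp1 and Smpd1.

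Levels of different members were compared only per length, as reads per kilobase of exonic read positions per 1000000 gene reads. In CD24- cells Ctsl led the cathepsins at 743 ± 81.0 (SD, n = 3), followed by Ctsd at 329 ± 13.1, Ctsz at 265 ± 35.35 and Ctsb at 204 ± 32.4. In CD24+ cells Ctsd led at 327 ± 42.2, and Ctsl at 222 ± 43.2, Ctsz at 198 ± 22.6 and Ctsb at 192 ± 25.2 lay within their SDs of each other. Ctsa was well below these at 39.4 ± 5.78 and 43.2 ± 5.10 in CD24- and CD24+ cells. Ctsh ranked above Ctso in CD24- cells, at 8.76 ± 2.26 against 7.303 ± 0.93, a difference within their SDs. In CD24+ cells the order was turned, with Ctso at 13.1 ± 2.23 and Ctsh at 3.66 ± 0.28.

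**Figure D3:**
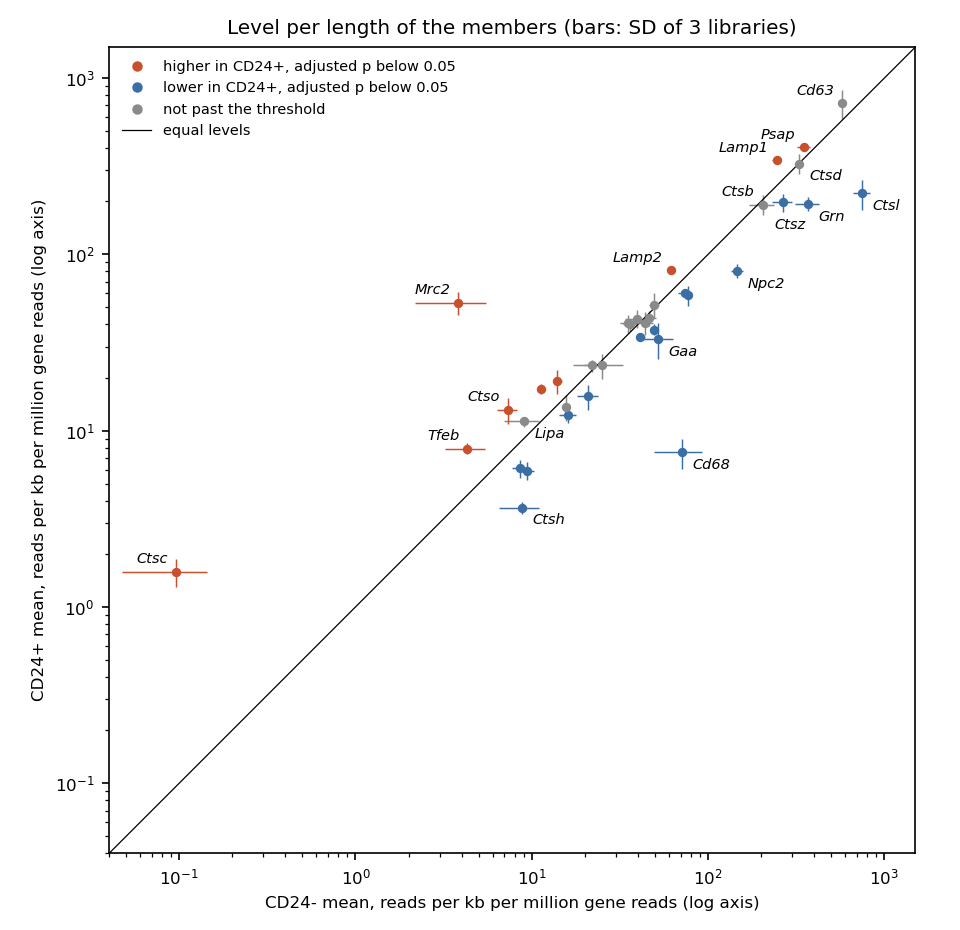
Mean level per length in CD24- (horizontal) and CD24+ cells (vertical), both as reads per kb of exonic read positions per 1000000 gene reads on log axes, with the SD of 3 libraries as bars. Points on the line are equal in both groups, and members below 1 read per kb per 1000000 in both groups are not drawn. Ctsl falls from 743 to 222 and Cd68 from 70.8 to 7.53, while Mrc2 rises from 3.84 to 53.1.

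Enzymes that dismantle glycans and glycolipids were lower or did not pass the test. Of 9, 5 were lower in CD24+ cells (55.6%, beside 22.3% of all genes) and none was higher (beside 23.8%). Gaa, acid alpha-glucosidase, which releases glucose from glycogen, and the heparan sulfatase Sgsh had differences of similar size. Gaa was at 149, 152 and 103 CPM in CD24- libraries and at 101, 63.1 and 93.55 CPM in CD24+ libraries. CD24- replicate 3 nearly met CD24+ replicate 1, and the log2 fold change was -0.66 ± 0.18 with an edgeR adjusted p of 0.0138. The other enzymes that were lower were Sgsh (-0.63 ± 0.14), alpha-galactosidase A Gla (-0.57 ± 0.14), the sialidase Neu1 (-0.50 ± 0.12) and the hexosaminidase subunit Hexa (-0.44 ± 0.10), whose call was lost with each distinct sequence counted once (at -0.33, p adjusted over all genes 0.0582). The alpha-mannosidase Man2b1, beta-galactosidase Glb1, beta-glucuronidase Gusb and the glucosaminidase Naglu lay between -0.23 and 0.19 and were not called. Of the reads annotated to Glb1, 68.0% matched a transcript of the gene, and 23.8% of reads matching Sgsh also matched a transcript of another gene.

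Lipid handling members, with progranulin listed among them, split by gene. Progranulin, a secreted glycoprotein that is cut into granulins in the lysosome, had the largest drop of the 7. Grn was at 706, 701 and 542.5 CPM in CD24- libraries and at 366, 306 and 357 CPM in CD24+ libraries. The groups were well apart, with a log2 fold change of -0.92 ± 0.12 and an edgeR adjusted p of 1.18e-04. Counting each distinct sequence once gave -0.55 (adjusted p 0.0220).

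Npc2 binds cholesterol in the lumen and hands it to the membrane protein Npc1. Npc2 was at 474, 462 and 416 CPM against 276, 227 and 255 CPM. All CD24+ libraries were lower, with a log2 fold change of -0.84 ± 0.09 and an edgeR adjusted p of 5.10e-05. Counting each distinct sequence once gave -0.50 (adjusted p 0.0276). Npc1 was also lower, by -0.39 ± 0.11 with an adjusted p of 0.0186, a call that was lost without CD24+ replicate 1 and with each distinct sequence counted once (at -0.29, p adjusted over all genes 0.0882). Both carriers of the cholesterol export route were thus lower in CD24+ cells.

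Acid sphingomyelinase rose. Smpd1 was at 31.8, 28.5 and 29.75 CPM in CD24- libraries and at 49.1, 36.1 and 39.0 CPM in CD24+ libraries. The groups did not overlap, and the log2 fold change was 0.45 ± 0.12 with an edgeR adjusted p of 0.0139, a call that was lost without CD24- replicate 2. The saposin precursor Psap was higher by 0.23 ± 0.09 with an adjusted p of 0.0482, just inside the threshold, and of the fits that left out 1 library it kept the call only in that without CD24+ replicate 2. The call was also lost without TMM (adjusted p 0.0751) and with every gene kept (0.0592), and with each distinct sequence counted once Psap was at -0.05 with an adjusted p of 0.846. Acid lipase Lipa (0.37 ± 0.15, adjusted p 0.0638) and acid ceramidase Asah1 (0.05 ± 0.12, adjusted p 0.762) were not called.

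Of 6 lysosomal membrane proteins, 3 were higher (50.0%, beside 23.8% of all genes) and 1 was lower (16.7%, beside 22.3%). Lamp1 and Lamp2 are the heavily glycosylated proteins that line the membrane. Lamp1 was at 436, 433 and 491 CPM in CD24- libraries and at 673, 613 and 625 CPM in CD24+ libraries. Lamp2 was at 218, 219 and 217 CPM against 295, 262 and 294 CPM. For both genes every CD24+ library was above every CD24- library, with log2 fold changes of 0.49 ± 0.08 and 0.38 ± 0.08 and edgeR adjusted p-values of 8.83e-04 and 0.00262.

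Both calls were lost when each distinct read sequence was counted once per library, at 0.11 with an adjusted p of 0.665 for Lamp1 and 0.21 with an adjusted p of 0.137 for Lamp2. Over all libraries Lamp1 had 40136 reads of 3070 distinct sequences, and Lamp2 had 18442 reads of 4405. The part of repeated sequences and depth in these losses was not tested. Scarb2, the receptor that carries glucocerebrosidase to the lysosome, was higher by 0.36 ± 0.10 with an adjusted p of 0.0143, a call that was lost without CD24- replicate 1 or 2 or CD24+ replicate 3. For Scarb2, 38.2% of the reads matching its transcripts carried another annotation or none. With those reads included its log2 fold change was 0.64 with an adjusted p of 2.60e-04.

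Lamp2 is spliced to alternative last exons that give the protein different tails. The LAMP2A tail is the receptor of chaperone-mediated autophagy, and LAMP2B and LAMP2C are the other forms. Reads unique to the last exon of Lamp2-202, the LAMP2B form, were at 48.8, 46.96 and 46.5 reads per kb per 1000000 in CD24- libraries and at 70.3, 68.3 and 73.3 in CD24+ libraries. Those unique to the last exon of Lamp2-201, the LAMP2A form, were at 36.1, 29.3 and 31.8 against 34.2, 19.4 and 29.7. The LAMP2B end was thus higher in all CD24+ libraries, and the LAMP2A end overlapped between groups.

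The LAMP2A share of the 3 ends, per length, was 42.3%, 38.1% and 40.5% in CD24- libraries and 32.3%, 21.9% and 28.6% in CD24+ libraries. The means were 40.3% ± 2.11 and 27.6% ± 5.27 (SD, n = 3), and the difference of -12.7 percentage points had a two-sided exact permutation p of 0.1, the smallest that 3 against 3 libraries allow. The LAMP2C end had 43 reads in all. The last exons lie at chrX:38405062-38405571 (LAMP2A), chrX:38419507-38421851 (LAMP2B) and chrX:38401357-38402281 (LAMP2C) in GRCm38, and Lamp2 is on the minus strand.

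**Figure D4:**
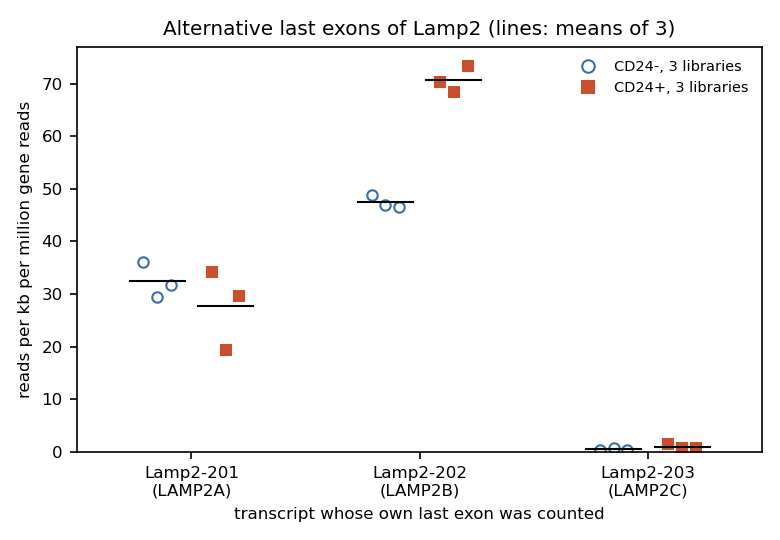
Reads unique to each alternative last exon of Lamp2, per kb of read positions and per 1000000 gene reads (vertical axis), in the 3 CD24- (open circles) and 3 CD24+ libraries (filled squares), with a line at each mean. The LAMP2B end of the 3 CD24+ libraries sits between 68.3 and 73.3, above all CD24- libraries, while the values of the LAMP2A end overlap.

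Cd68 had the largest drop of all members. It encodes a sialomucin of late endosomes and lysosomes that is abundant in macrophages. Cd68 was at 74.3, 76.1 and 43.4 CPM in CD24- libraries and at 9.44, 6.94 and 8.07 CPM in CD24+ libraries. The lowest CD24- library was well above the highest CD24+ library, with a log2 fold change of -3.03 ± 0.22 (7.93-fold higher in CD24- cells) and an edgeR adjusted p of 2.37e-06. Without CD24- replicate 3 or any other single library it lay between -3.25 and -2.89. The gene is at chr11:69664213-69666153 on the minus strand (GRCm38), and 94.0% of its reads matched a transcript. That share was 96.2% in CD24- and 81.6% in CD24+ libraries. When reads matching a Cd68 transcript were counted whatever their annotation, the log2 fold change was -3.25.

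Of 10 macrophage markers, 7 were matched to a deposited annotation. Adgre1, Laptm5 and Tyrobp had no reads under their symbols or the synonyms searched, and whether they were annotated under another name was not tested. Ptprc, Csf1r, Lyz2, Aif1 and Fcer1g had at most 0.379 CPM. Itgam was at 3.27 to 4.45 CPM in CD24- libraries and at most 0.0524 CPM, a single read, in CD24+ libraries. The sum of the 7 was 34.0 to 38.0 CPM in CD24- and 25.25 to 34.3 CPM in CD24+ libraries, with Cd14 at 30.5 to 32.9 and 24.6 to 33.7 CPM. The defining markers Ptprc and Csf1r were thus at or near 0 in both groups. The part of Itgam-bearing cells in the Cd68 difference was not tested.

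Cd63, a tetraspanin of late endosomes and exosomes, was at 403, 397 and 440 CPM against 638, 454 and 470 CPM. The groups did not overlap, yet CD24+ replicate 1 stood well above the other CD24+ libraries, and the log2 fold change of 0.33 ± 0.13 had an adjusted p of 0.0521. Of the reads that matched Cd63 transcripts, 68.1% also matched another gene's transcript and 27.7% carried another annotation, so its level is uncertain. With reads unique to the gene it was called, at 0.41 with an adjusted p of 0.0264, while without CD24+ replicate 1 it was 0.15 with an adjusted p of 0.153. The calcium channel Mcoln1 was not called, at -0.09 ± 0.10.

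All 3 proton pump subunits among the members were lower in CD24+ cells by small amounts, beside 22.3% of all tested genes. Atp6v1h fell by 0.39 ± 0.09 on the log2 scale, Atp6v0d1 by 0.28 ± 0.09 and Atp6v1a by 0.27 ± 0.08, with edgeR adjusted p-values of 0.00540, 0.0215 and 0.0195. The 3 CD24+ values of each were below its 3 CD24- values, which held for 27.6% of all tested genes. The calls of Atp6v1a and Atp6v0d1 were lost without CD24- replicate 1 or 2, and that of Atp6v0d1 also without CD24+ replicate 2 or 3. Both were lost as well with each distinct sequence counted once, at -0.21 and -0.17 with adjusted p-values of 0.101 and 0.186, while that of Atp6v1h held with each library left out in turn.

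Tfeb is a basic helix-loop-helix factor that drives lysosomal gene expression when it is in the nucleus. It was at 8.52, 10.9 and 6.42 CPM in CD24- libraries and at 16.7, 14.7 and 16.4 CPM in CD24+ libraries. All CD24+ libraries were higher, with a log2 fold change of 0.87 ± 0.18 and an edgeR adjusted p of 0.00292. The relatives of Tfeb in the same family went the other way or did not pass. Mitf was at 50.9, 42.45 and 40.9 CPM against 17.15, 21.85 and 23.3 CPM, a log2 fold change of -1.08 ± 0.13 with an adjusted p of 9.15e-05. Tfe3 was lower by -0.60 ± 0.08, and Tfec was near 1 CPM and not called. The transcript level of these factors does not report their location in the cell.

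Tfeb and its relatives bind the palindrome CACGTG, which Myc and other factors of the class also bind. In RefSeq promoter sequences (GRCm38.p6, the 250 bases before each start), available for 34 of the 40 members, CACGTG was present in 13 genes (38.2%), against 6.86% of all genes with a promoter sequence. Promoters of Ctsb, Ctsh, Asah1, Npc1, Atp6v1h and Mrc2 were not used here. The longer form TCACGTG, searched on both strands and overlapping the first, was present in 32.4% of members and 3.58% of all genes. Exact matches to the palindromic consensus known as the CLEAR element were found in none of the 34 members and 0.27% of all genes. Inexact matches to this consensus and bases after the start were not searched, so the count does not show that members lack CLEAR elements. Of the 13 genes with CACGTG, 5 were lower (Ctsl, Gaa, Gla, Sgsh and Atp6v1a), 1 was higher (Lamp1), 6 were not called and 1 (Ctsf) was not tested, beside 22.3% lower and 23.8% higher among all tested genes. Of the 21 without it, 7 were lower, 7 were higher with Tfeb included, 6 were not called and 1 was not tested. In 6 of the 13 genes (Atp6v1a, Ctsa, Ctsl, Lgmn, Naglu and Sgsh) every match before the RefSeq start lay, at least in part, inside the bounds of the GENCODE gene. Stretches upstream of 1 gene that rose, 2 that fell and 1 that was not called are shown to compare where the motif lay, with CACGTG in capitals and each read 5′ to 3′ on the strand of its gene.
Lamp1, chr8:13159111-13159160 (+): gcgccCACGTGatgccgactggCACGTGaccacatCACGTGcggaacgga
Gaa, chr11:119267801-119267850 (+): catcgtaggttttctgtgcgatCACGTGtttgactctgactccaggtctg
Gla, chrX:134601172-134601221 (-): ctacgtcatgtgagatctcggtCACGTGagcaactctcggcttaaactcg
Glb1, chr9:114401008-114401057 (+): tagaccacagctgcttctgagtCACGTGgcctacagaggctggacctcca
The stretch of Lamp1 ended at the base before the start and held 3 of its 4 matches. The match of Gaa lay 140 bases before the start, the nearer of the pair in Gla 194 bases, and that of Glb1 48 bases.

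Mrc2 had the second largest rise among the members and the largest among those with ample reads in both groups. It encodes Endo180, a receptor that binds collagen fragments at the cell surface and takes them to lysosomes, and it is typical of fibroblasts and other mesenchymal cells. Mrc2 was chosen with its direction in these libraries known, so that direction is no independent evidence. Mrc2 was at 20.9, 23.0 and 9.35 CPM in CD24- libraries and at 259, 208 and 275 CPM in CD24+ libraries. Every CD24+ library was many times above every CD24- library, and CD24- replicate 3 was the lowest. The log2 fold change was 3.78 ± 0.25, a level 13.9-fold higher in CD24+ cells, with an edgeR adjusted p of 1.24e-06. It lies at chr11:105292643-105351139 on the plus strand (GRCm38), 97.4% of its reads matched a transcript, and 0.102% of matching reads were annotated elsewhere.

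Of 5 genes that work beside Mrc2 in collagen uptake and cleavage, 4 were tested. The membrane collagenase Mmp14 was higher, at 69.6, 70.3 and 56.8 CPM against 145, 137 and 142 CPM, with a log2 fold change of 1.10 ± 0.10 and an edgeR adjusted p of 8.01e-06. The urokinase receptor Plaur, a partner of Endo180, was lower by -0.56 ± 0.15 with an adjusted p of 0.0114. Plau and Mmp13 were not called, and the related receptor Mrc1 had too few reads to be tested. Of 7 fibroblast markers, Lum and Thy1 had no reads under their symbols or the synonyms searched. Whether they were annotated under another name was not tested. The other 5 were all called higher in CD24+ cells, as Mrc2 was, beside 23.8% of all tested genes. Their summed level was 9.13 to 16.01 CPM in CD24- and 64.8 to 97.8 CPM in CD24+ libraries, with Pdgfrb at 3.38 to 5.59 against 49.9 to 77.5 CPM. Pdgfra overlapped between groups, with CD24+ replicate 1 at 8.34 CPM and CD24- replicate 2 at 8.43 CPM. Dcn had the largest change of the list, from 0.105 CPM or less to 1.02 to 3.09 CPM. Col1a1, a defining marker, was at most 1.52 CPM in CD24- and 4.14 CPM in CD24+ libraries, and the part of such cells in the Mrc2 difference was not tested.

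The rest of the lysosomal gene repertoire, taken from 4 lists of other genes, was called about as often as all genes. Of 91 tested genes, 43 were called (47.3%, beside 46.1%), 28 lower (30.8%, beside 22.3%) and 15 higher (16.5%, beside 23.8%) in CD24+ cells, with a median log2 fold change of -0.05. In the single lists below, the same 22.3% lower and 23.8% higher of all genes apply. Other hydrolases and their cofactors counted 8 lower (27.6%) and 5 higher (17.2%) of 29. The largest drop was that of Acp5, tartrate-resistant acid phosphatase, at 14.6, 14.6 and 7.66 CPM against 2.52, 1.98 and 2.67 CPM (-2.38 ± 0.28), and the largest rise that of the acid nuclease Dnase2a (0.87 ± 0.22). Other membrane proteins counted 2 lower (10.5%) and 4 higher (21.1%) of 19, from Cln3 (-0.97 ± 0.10) to the potassium channel Tmem175 (0.59 ± 0.16).

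The other subunits of the V-ATPase counted 6 lower (37.5%) and 1 higher (6.25%) of 16. Subunits of the a type, which anchor the pump in particular membranes, differed in direction, with Atp6v0a1 at -0.88 ± 0.11 and Tcirg1 at -0.71 ± 0.12 both lower, Atp6v0a4 higher at 0.67 ± 0.17 and Atp6v0a2 not called at 0.07 ± 0.11. Genes of sorting and regulation counted 12 lower (44.4%) and 5 higher (18.5%) of 27. Of the genes for the mannose 6-phosphate tag and its receptors, which were singled out after their values were seen, 4 were lower, the transferase subunit Gnptab at -0.93 ± 0.12, the uncovering enzyme Nagpa at -0.64 ± 0.16 and the receptors Igf2r and M6pr at -0.62 ± 0.12 and -0.20 ± 0.07. Gnptg, another transferase subunit, was not called at 0.21 ± 0.14. Sort1, the sorting receptor sortilin, which can bring proteins to lysosomes without mannose 6-phosphate, rose most, from 5.79, 7.77 and 3.38 CPM to 30.2, 19.4 and 29.65 CPM (2.19 ± 0.26).

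Of 8 genes for inhibitors of cysteine cathepsins, 2 had enough reads to be tested. Both were called higher in CD24+ cells, beside 23.8% of all tested genes. Cystatin C, the main secreted inhibitor, was at 208, 223 and 174 CPM in CD24- libraries and at 400.0, 322 and 404 CPM in CD24+ libraries. The groups did not overlap for Cst3, with a log2 fold change of 0.90 ± 0.12 and an edgeR adjusted p of 1.41e-04. The cytosolic inhibitor Cstb was higher by 0.31 ± 0.11 with an adjusted p of 0.0454.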

How the data were processed

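The 6 libraries hold mRNA of sorted Mvt1 cells, 3 plates of CD24- and 3 of CD24+ cells, made with a kit that keeps no strand and sequenced as single-end reads. The authors cut the reads to 47 nt, merged identical ones, placed every sequence on the genome without mismatch and assigned 1 annotation by a hierarchy. For each library they deposited the count of every mapped sequence, raw and not pooled. The submitters' processing notes name the mouse build mm9. Which mapping tool and which annotation were used is not given in the sources used here. With such placement a read across a splice site can be missed, and genes with near-identical copies or overlapping genes can exchange reads.

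Here the deposited counts were summed per annotation and library. Reads annotated to repeats (5.93% to 7.83% of mapped reads), to small RNA (1.22% to 3.94%) or to no feature (16.9% to 20.2%) entered neither totals nor tests. Each library counted as 1 replicate, since the study describes 3 plates per group. No pair of libraries agreed within sampling noise, but repeat libraries of the same plate can also differ by more than that. This check thus cannot show that CD24- replicates 1 and 2 are independent. Genes that passed filterByExpr were scaled by TMM and tested with edgeR 4.0.16 (quasi-likelihood F test, Benjamini-Hochberg adjustment over 11125 genes, threshold 0.05) in R 4.3.3, after a test on simulated data. CPM are per 1000000 gene reads with TMM scaling. Reads were also matched without mismatch to GENCODE M21 transcripts (GRCm38), which gave the levels per length, the Lamp2 ends and the share of reads that match the gene. Gene coordinates are those of GRCm38, and no position was converted between builds. The level per length used the coding transcript with the best APPRIS tag and the most reads per position.

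The members and lists were chosen with earlier results of these data known, so a share of members called is a description. The 4 lists of other lysosomal genes, the inhibitors, the partners of Mrc2 and the markers were written from general knowledge. Values in every library are given for the 11 cathepsins, Lamp1, Lamp2, Tfeb, Mrc2, Cd24a and, of the members past the threshold, the 6 largest changes upward and the 6 largest downward. Of each other list, the largest change in each direction is named. The values of Tfe3, Tfec, Tcirg1, Atp6v0a2, Gnptab, Gnptg, Nagpa, Igf2r, M6pr and Cd63 by library or group were added after they were seen. Alternatives were DESeq2 1.42.0, library totals without TMM, other filters, each distinct sequence counted once, a replicate block, limma 3.58.1 on quantile-normalized CPM with a regularizer of 10 added (the study added it to median coverage), and leaving out each library. Counts restricted to transcript matches were added after seeing the data. Intervals and p-values cover neither the sort nor other lines.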

Additional observations from a re-analysis of the deposited data

How the results depend on the processing

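The count of 23 called members was 15 of 36 tested (5 higher and 10 lower in CD24+ cells) when each distinct sequence was counted once per library. Among all genes 3697 of 11078 tested were then called (2147 higher and 1550 lower), against 5130 of 11125 with all reads counted. The cause of these drops was not tested. Under that setting Psap turned to -0.0493 with an adjusted p of 0.846. In the other alternatives that used all 6 libraries, between 20 and 24 members and between 4493 and 5469 of all genes were called. Leaving out each library in turn gave 17 to 23 called members, 4069 to 5358 called genes among all genes, 31 to 47 called genes of the other lysosomal lists, a log2 fold change of 3.49 to 4.02 for Mrc2 and of 2.71 to 3.05 for Cd24a. Of 552 refits of single genes (the tested members other than Mrc2, and Tfeb), 499 kept direction and call, 29 lost the call, 5 gained it and 19 changed sign. Besides Psap these were members that were called in neither fit. Ctsd was -0.0085 in DESeq2, -0.0197 without TMM, -0.0004 with every gene kept, -0.125 with each distinct sequence counted once, -0.0028 with the replicate block, -0.0473 in limma, and -0.0209, -0.0843 and -0.0353 without CD24- replicate 3, CD24+ replicate 1 and CD24+ replicate 3. Asah1 was -0.0170 with each distinct sequence counted once, and -0.0047, -0.0436 and -0.0149 without the same 3 libraries. Cd63 was -0.0052 with each distinct sequence counted once. Ctsa was -0.0142 without CD24- replicate 3, Lgmn was 0.0771 without CD24- replicate 2, and Ctsb was 0.0104 without CD24- replicate 2 and 0.0240 without CD24+ replicate 2. The far ends of their ranges with 1 library left out were 0.1003 for Ctsd, 0.17 for Asah1, 0.1834 for Ctsa, -0.1898 for Ctsb and -0.3401 for Lgmn. Atp6v1h, Cd68, Ctsc, Ctsh, Ctsl, Ctso, Gaa, Gla, Grn, Mrc2, Neu1, Npc2 and Sgsh, 13 of the 23, were called in every alternative run.

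Both groups carry replicate numbers 1 to 3, but the labels state no shared batch. Deviations from the group means of same-numbered libraries correlated at 0.014, -0.28 and -0.33, so the libraries were not treated as paired. With 3 libraries per group this check cannot decide whether batches were shared. With the replicate number as a block, 20 members (7 higher and 13 lower), 4493 genes in all and 37 genes of the other lysosomal lists were called. With the block the calls of Atp6v0d1, Atp6v1a and Psap were lost (adjusted p 0.0611, 0.0567 and 0.104) at nearly the same log2 fold changes (-0.280, -0.263 and 0.233). Ctsc in CD24- cells and Ctsf were limited by depth, since 3 reads correspond to 0.157 to 0.472 CPM depending on the library. Ctsk lay above that level in all libraries but CD24+ replicate 1, yet had too few reads to be tested. The 3 plates of each group limit the LAMP2A comparison, which could not go below a p of 0.1.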
